A study of Rattus norvegicus with 12 samples.

Results

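The 9 genes described here include Nr3c1, which encodes the glucocorticoid receptor, and its widely shared target genes Tsc22d3, Fkbp5 and Sgk1. The others are the growth arrest and p53 pathway genes Cdkn1a, Gadd45a, Gadd45g, Mdm2 and Ccng1, most of them targets of the tumour suppressor p53. The set was proposed with earlier results of these data known, and its rule goes by gene symbol alone: every probe set that the platform annotation assigns to 1 of these symbols alone was taken, which gave 14 probe sets of 20826 named ones, and 9 of 14217 named genes. The livers came from male Wistar rats, labelled 5 weeks old, on a purified AIN93G diet. Of 7 rats fed maple syrup and 8 fed the sugar mix, 6 each were put on arrays. In 6 rats this diet held 20% maple syrup, and in 6 rats it held 20% of a sugar mix syrup made to a similar sugar composition. All rats had 4 days of AIN93G first, then 11 days of the syrup diet and a fast of 16 hours before the liver was taken, so every group was fasted. Wistar is an outbred strain, each array is labelled as a biological replicate, and no rat without added sugar was analysed here.

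Glucocorticoids are adrenal steroids that rise with fasting, stress and the daily rhythm. In the liver they bind the receptor encoded by Nr3c1, which then moves to the nucleus and switches on genes such as Tsc22d3 and Fkbp5, so that the levels of these targets serve as a readout of the hormone. p53 is a transcription factor stabilised by DNA damage and other stress. It switches on Cdkn1a, an inhibitor of cyclin-dependent kinases that stops the cell cycle, and Mdm2, a ubiquitin ligase that degrades p53 in turn. Cdkn1a can also be switched on without p53, including by glucocorticoids, so a liver with much Cdkn1a may or may not be one with active p53. The question posed to these data was which of the 2 target sets Cdkn1a accompanies from liver to liver, and whether any member differs between the diets.

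Among the RefSeq promoter windows of the members (GRCr8 build, 250 bases before to 50 bases after an annotated start), 5 are shown. These are that of Cdkn1a, those of Tsc22d3 and Fkbp5, and those of the other members with a match to the p53 motif. For Tsc22d3 the window with the lowest coordinates of its 3 was taken. Tsc22d3 and Fkbp5 are the glucocorticoid targets that rose and fell with Cdkn1a, and the windows of Sgk1 are not shown, so this choice follows the results. They lie at chr20:7150682-7150981 on the plus strand for Cdkn1a and, on the minus strand, at chrX:109009985-109010284 for Tsc22d3, chr20:6543506-6543805 for Fkbp5, chr4:97486750-97487049 for Gadd45a and chr10:25684827-25685126 for Ccng1. Sequences run 5′ to 3′ on the strand of the gene, and capitals mark letters that match a searched motif on either strand.
Cdkn1a: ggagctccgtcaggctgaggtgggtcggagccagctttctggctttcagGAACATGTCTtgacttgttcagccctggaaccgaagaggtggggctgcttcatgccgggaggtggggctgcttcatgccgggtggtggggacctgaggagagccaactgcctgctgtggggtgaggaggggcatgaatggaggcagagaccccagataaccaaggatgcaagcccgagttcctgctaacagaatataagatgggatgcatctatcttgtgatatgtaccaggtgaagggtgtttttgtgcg
Tsc22d3: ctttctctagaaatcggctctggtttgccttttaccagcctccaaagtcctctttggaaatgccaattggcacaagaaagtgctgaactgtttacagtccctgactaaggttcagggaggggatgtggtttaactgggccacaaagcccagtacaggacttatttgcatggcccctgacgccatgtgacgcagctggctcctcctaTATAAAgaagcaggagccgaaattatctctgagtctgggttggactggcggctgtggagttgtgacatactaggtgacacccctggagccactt
Fkbp5: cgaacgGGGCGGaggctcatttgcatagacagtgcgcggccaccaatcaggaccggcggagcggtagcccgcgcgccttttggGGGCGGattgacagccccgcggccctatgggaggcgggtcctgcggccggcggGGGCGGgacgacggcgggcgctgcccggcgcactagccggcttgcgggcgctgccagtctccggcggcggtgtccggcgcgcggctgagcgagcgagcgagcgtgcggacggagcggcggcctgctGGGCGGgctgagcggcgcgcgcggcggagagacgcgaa
Gadd45a: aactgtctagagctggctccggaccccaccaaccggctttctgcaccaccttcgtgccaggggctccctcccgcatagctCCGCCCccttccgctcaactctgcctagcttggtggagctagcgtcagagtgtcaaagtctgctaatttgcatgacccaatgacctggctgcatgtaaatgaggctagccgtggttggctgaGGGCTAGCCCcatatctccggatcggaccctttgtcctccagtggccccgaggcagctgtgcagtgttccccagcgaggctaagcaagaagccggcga
Ccng1: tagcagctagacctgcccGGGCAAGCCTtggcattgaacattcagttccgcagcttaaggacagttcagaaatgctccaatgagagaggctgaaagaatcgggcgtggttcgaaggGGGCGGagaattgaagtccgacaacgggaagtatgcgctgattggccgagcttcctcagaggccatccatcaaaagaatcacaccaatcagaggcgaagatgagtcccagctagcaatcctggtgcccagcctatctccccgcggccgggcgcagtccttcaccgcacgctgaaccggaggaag

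In the Cdkn1a window the capitals are a match to the p53 consensus single arm, the motif of 10 letters that a p53 dimer recognises, from -201 to -192 relative to the start. Single arms also matched in the Gadd45a window (from -48 to -39) and in the Ccng1 window (from -232 to -223). Such a match is present in 7.98% of the 33469 promoter windows of the RefSeq table. The other capitals are GC boxes (GGGCGG, in 33.1% of all windows), of which the Fkbp5 window has 4, and the TATA box (TATAAA, in 14.2% of all windows) of the Tsc22d3 window. The 14 member windows held 0 matches to the glucocorticoid receptor monomer site TGTTCT, which 20.7% of all windows hold, and 0 to the full palindromic glucocorticoid response element, which 0.0149% hold. Motifs were searched on both strands and matches could overlap. A match describes letters in this window only, and many response elements of these genes lie outside it. Cdkn1a and Fkbp5 share chromosome 20.

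The values are the authors' processed score for each probe set, and no source used here gives its method or scale. Scores ran from 5.56513 to 15.2071 over the table and resemble log2 intensities, but the differences between livers were far smaller than log2 intensities give (median SD of a probe set 7.14e-06). No fold change is therefore given. Values of a probe set are given as the score, or standardised, in SDs of that probe set over the 12 livers. Apart from the coarse check of the label below, the scores of different probe sets are not compared as levels. Array medians ran from 7.36619 to 7.36632, and the number of arrays limits the precision. As a check of the label liver, the 8 measured of 9 hepatocyte markers had mean scores of 13.47 to 15.21, near the top of the table's range. The highest mean score was 13.52 among erythroid, 11.59 among Kupffer cell and macrophage and 7.35 among T and NK cell markers. All T and NK cell markers thus lay below the table's median score of 7.36628, so their presence is not shown. No share of cells can be read from these scores.

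Cdkn1a had the largest SD of the score between livers among the members, which is not a measure of how far its RNA varied. Its probe set with the highest mean, at a mean score of 8.1586, had an SD of 0.0307 over the 12 livers, larger than in 99.9% of named probe sets. In maple syrup livers its lowest, median and highest scores were 8.11891, 8.15219 and 8.21007, against 8.1168, 8.1637 and 8.17812 in sugar mix livers. Maple syrup replicates 1 and 6 were the highest of all 12 livers and sugar mix replicate 6 was the lowest, so the diets overlapped throughout. The second Cdkn1a probe set, at a mean score of 6.8613, gave nearly the same order of livers (r = 0.97, rho = 0.96). The largest step between neighbouring livers in Cdkn1a took up 24.0% of its range, with 6 livers on either side, and both sides held animals of both diets.

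Among the glucocorticoid targets, Tsc22d3, which encodes the anti-inflammatory leucine zipper protein GILZ, had a mean score of 9.8401 and an SD of 0.00522, larger than in 99.4% of named probe sets. Its lowest, median and highest scores were 9.83352, 9.83897 and 9.84671 in maple syrup livers, against 9.83062, 9.84355 and 9.84487 in sugar mix livers. Fkbp5, a co-chaperone that binds the receptor complex and dampens its response to hormone, had scores of 8.25872, 8.25998 and 8.26214 (lowest, median and highest) in maple syrup livers, against 8.25745, 8.25953 and 8.26188 in sugar mix livers. Tsc22d3 and this Fkbp5 probe set were highest in maple syrup replicate 1 and lowest in sugar mix replicate 6, as Cdkn1a was. The second Fkbp5 probe set (r = 0.87 with the first) was also lowest in sugar mix replicate 6 but highest in maple syrup replicate 6, and at 0.41 SDs in maple syrup replicate 1. Sgk1, a kinase that regulates ion channels and transporters, had a far smaller SD of the score, at 3.01e-05 with a mean score of 9.3872. Its highest liver was maple syrup replicate 5.

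Of the p53 targets, Mdm2 had 3 probe sets with SDs of 1.18e-05 to 2.04e-05. They agreed in part: numbered by mean score, r was 0.72 between 1 and 2, 0.70 between 2 and 3, and 0.36 between 1 and 3. Ccng1, which encodes cyclin G, had an SD of 7.27e-05 and Gadd45a, a stress sensor that slows the cell cycle and promotes DNA repair, had an SD of 0.000703. The spread of Mdm2, Ccng1, Sgk1 and Nr3c1 (SD 3.42e-05 and 3.73e-05 for its 2 probe sets) was of the order of the gap between array medians or below it, so their values depend on how arrays are scaled. The score may be compressed to a different degree in different probe sets, which was not measured, so a wide spread in this score is not a measure of how far the RNA varied.

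**Figure D1:**
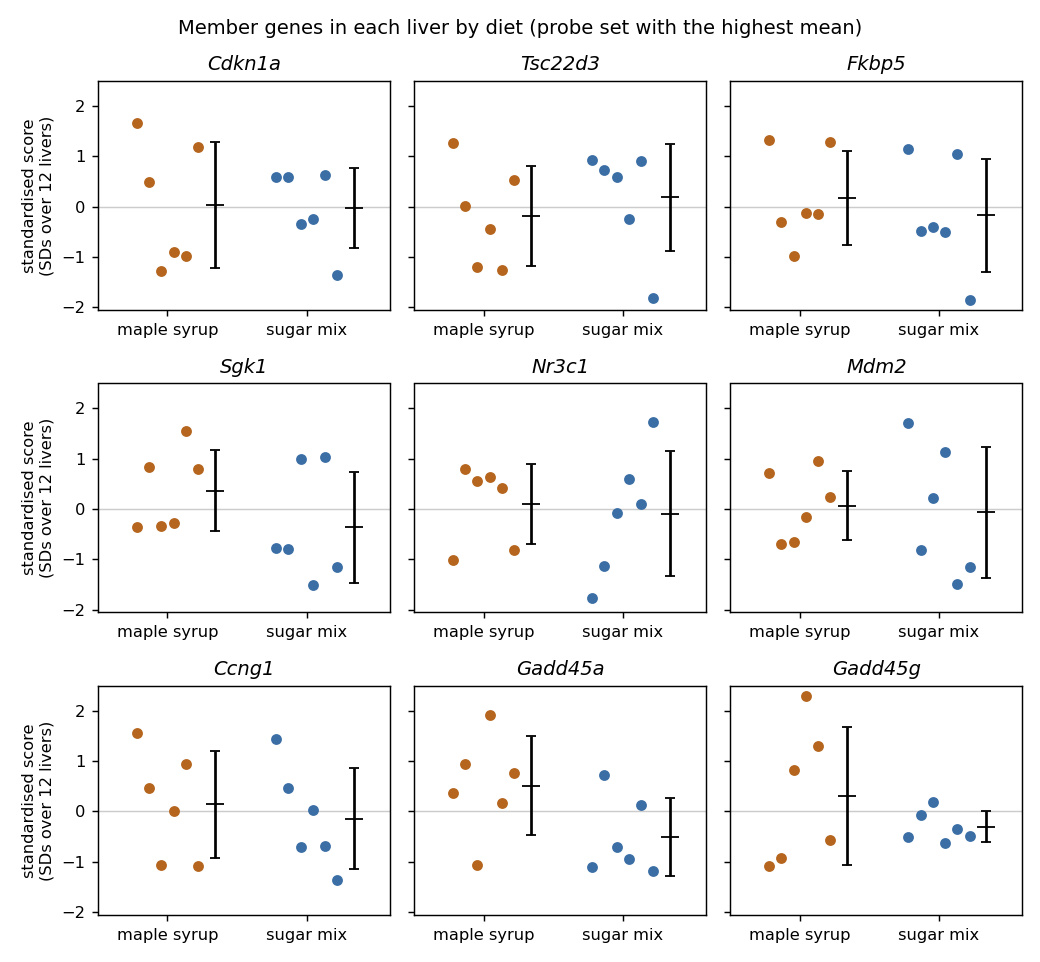
Standardised score of each member gene (probe set with the highest mean; vertical axis in SDs over the 12 livers) in the 6 maple syrup and 6 sugar mix livers; points are livers in the order of replicates 1 to 6, the dash is the mean and the bar its SD. The diets overlap in every panel, and Gadd45g spreads from -1.08 to 2.29 in maple syrup livers against -0.62 to 0.19 in sugar mix livers.

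Over the 12 livers Cdkn1a rose and fell with Tsc22d3 and Fkbp5 and ran opposite to Gadd45g, and to the receptor gene Nr3c1 as deposited but not after quantile normalization. Its correlations with Sgk1 and the p53 targets were between 0.11 and 0.44. Of these, a difference from Tsc22d3 and Fkbp5 was measured for Mdm2 alone, as deposited but not after quantile normalization or median centring. For Sgk1 such a difference was not tested. With Tsc22d3 the Pearson correlation was 0.89 (95% interval 0.65 to 0.97, n = 12, two-sided permutation p = 0.00017), and Spearman's rho was 0.88 (permutation p = 0.00035). With Fkbp5 r was 0.82 (95% interval 0.46 to 0.95, n = 12, permutation p = 0.00149) and rho was 0.79 (permutation p = 0.00357). The second Fkbp5 probe set gave r = 0.77 and rho = 0.87. These 8 relations form one family, and their p-values are not adjusted over it because the members were named with earlier results of these data known.

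Neither relation rested on the diets or on the extreme livers. Without the 2 livers farthest from the median of Cdkn1a, sugar mix replicate 6 and maple syrup replicate 1, r was 0.84 with Tsc22d3 (permutation p = 0.00308) and 0.70 with Fkbp5 (permutation p = 0.0277, n = 10). With the diet means removed r was 0.91 with Tsc22d3 and 0.83 with Fkbp5. Within the maple syrup livers r was 0.96 with Tsc22d3 (exact permutation p = 0.00278, n = 6) and within the sugar mix livers it was 0.92 (exact permutation p = 0.0111, n = 6). For Fkbp5 these values were 0.87 in maple syrup livers (exact p = 0.0167) and 0.86 in sugar mix livers (exact p = 0.0181, n = 6 each). Leaving out each liver in turn gave an r of 0.87 to 0.93 with Tsc22d3 and 0.77 to 0.87 with Fkbp5.

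Sgk1, also a glucocorticoid target, had an r with Cdkn1a of 0.11 (95% interval -0.49 to 0.64, n = 12, permutation p = 0.725), and its r with Tsc22d3 was also 0.11. Its r with Cdkn1a was 0.51 after quantile normalization (permutation p = 0.0908) and 0.37 after median centring. Nr3c1 ran opposite to Cdkn1a as deposited, with r = -0.74 (95% interval -0.92 to -0.28, n = 12, permutation p = 0.00702) and rho = -0.68. Its second probe set had r = -0.30. This direction was not kept under another scaling: after quantile normalization r was 0.67 (permutation p = 0.0209), after median centring it was -0.27, and without the 2 farthest livers it was -0.62 (permutation p = 0.062). The sign for Nr3c1 therefore cannot be given from these values.

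**Figure D2:**
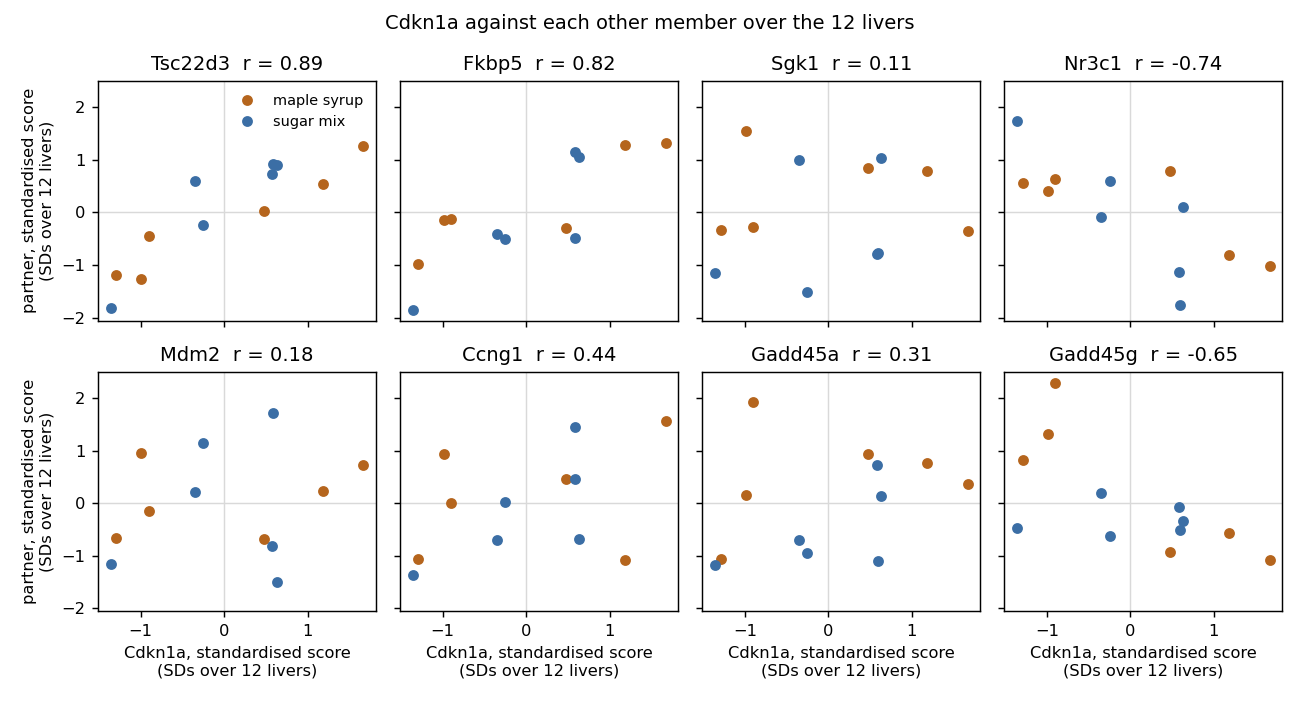
Standardised score of each partner gene (vertical axis, SDs over the 12 livers) against that of Cdkn1a (horizontal axis, same unit), with maple syrup and sugar mix livers in different colours and Pearson's r above each panel. Tsc22d3 (r = 0.89) and Fkbp5 (r = 0.82) climb with Cdkn1a in both diets, whereas Mdm2 (r = 0.18) and Sgk1 (r = 0.11) scatter widely.

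The p53 targets gave r = 0.18 for Mdm2 (95% interval -0.44 to 0.69, n = 12, permutation p = 0.561), 0.44 for Ccng1 (95% interval -0.18 to 0.81, n = 12, permutation p = 0.154) and 0.31 for Gadd45a (95% interval -0.32 to 0.75, n = 12, permutation p = 0.323). The other Mdm2 probe sets gave -0.03 and -0.19, and the first gave 0.33 after quantile normalization, 0.41 after median centring and -0.10 without the 2 farthest livers. With Ccng1 the 3 Mdm2 probe sets had r of 0.61, 0.58 and 0.28. Ccng1 reached r = 0.65 under median centring (permutation p = 0.0241) and r = 0.64 without maple syrup replicate 6 (permutation p = 0.0339, n = 11), but 0.05 without the 2 farthest livers. Gadd45a reached 0.63 without maple syrup replicate 4 (permutation p = 0.0428, n = 11), but 0.16 without the 2 farthest livers. The size of these correlations therefore depends on scaling and on single livers.

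The difference between correlations was tested directly for the 9 pairs of a glucocorticoid and a p53 target, a test added after the correlations were seen and with p-values not adjusted over the pairs, by an exact permutation that flips the sign of each liver's contribution to the difference over all 4096 arrangements (two-sided; a liver's contribution is its standardised Cdkn1a value times the gap between the standardised values of both targets). Cdkn1a correlated more strongly with Tsc22d3 than with Mdm2 by 0.71 (exact p = 0.00635), and 10 of 12 livers contributed in that direction. It also correlated more strongly with Fkbp5 than with Mdm2 by 0.63 (exact p = 0.00488, 10 of 12 livers). Against the other Mdm2 probe sets the differences were 0.92 and 1.08 for Tsc22d3 and 0.84 and 1.00 for Fkbp5, with exact p-values from 0.00195 to 0.0176. After quantile normalization and median centring the differences against the first Mdm2 probe set were 0.41 to 0.56 and did not pass (exact p = 0.167 to 0.206). Against Ccng1 the difference was 0.45 for Tsc22d3 (exact p = 0.142) and 0.38 for Fkbp5 (exact p = 0.238). Against Gadd45a it was 0.58 for Tsc22d3 (exact p = 0.0576) and 0.51 for Fkbp5 (exact p = 0.0815). The difference from Gadd45a reached an unadjusted exact p of 0.0361 to 0.0449 for Tsc22d3 without maple syrup replicate 2 or 6 or sugar mix replicate 3, and of 0.0488 and 0.0381 for Fkbp5 without maple syrup replicate 2 and sugar mix replicate 2. Without maple syrup replicate 4 it was 0.27 for Tsc22d3 (exact p = 0.327) and 0.21 for Fkbp5 (exact p = 0.318), and without maple syrup replicate 6 the difference from Ccng1 was 0.26 (exact p = 0.371) and 0.14 (exact p = 0.558). For Sgk1 the differences ran the other way, at -0.07 against Mdm2 (exact p = 0.818), -0.32 against Ccng1 (exact p = 0.472) and -0.20 against Gadd45a (exact p = 0.51). A stronger correlation with Tsc22d3 and Fkbp5 was thus measured against Mdm2 as deposited, not against Ccng1 or Gadd45a, and for Sgk1 against none of the 3.

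Gadd45g, a relative of Gadd45a that responds to cytokines and other stress, was low where Cdkn1a was high (r = -0.65, 95% interval -0.89 to -0.12, n = 12, permutation p = 0.0206; rho = -0.62). Within the maple syrup livers r was -0.86 (exact permutation p = 0.0667, n = 6), against 0.12 in sugar mix livers (exact permutation p = 0.803, n = 6). The difference between the diets in this correlation was not tested. Standardised values of Gadd45g ran from -1.08 to 2.29 in maple syrup livers, where replicates 3, 4 and 5 were the highest of all 12 and replicates 1 and 2 the lowest, against -0.62 to 0.19 in sugar mix livers. Without maple syrup replicate 1, r was -0.59 (permutation p = 0.0559, n = 11). Gadd45g and Gadd45a themselves had r = 0.32.

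Set against the whole table, Tsc22d3 had the 9th highest r with Cdkn1a of 14216 other genes and Fkbp5 the 40th, and Nr3c1 had the 102nd lowest and Gadd45g the 312th lowest as deposited. An r as high as that of Fkbp5 was reached by 0.281% of genes, that of Ccng1 by 13.8%, Gadd45a by 23.4%, Mdm2 by 34.3% and Sgk1 by 40.7%. In a limma fit of 20824 probe sets on the Cdkn1a score, 1 passed an adjusted p of 0.05 (0.0048% of those tested), and it was no member: Srsf4, a splicing factor, with an adjusted p of 0.044. The count was 0 with diet as a term, after quantile normalization and after median centring. With each array left out in turn it was 2 without sugar mix replicate 6, 1 without sugar mix replicate 3 and 0 without any of the others. At an unadjusted p of 0.05 the fit held 1077 positive probe sets (5.17%) and 816 negative ones (3.92%). Tsc22d3 had a moderated t of 6.42 and an adjusted p of 0.108 (0.0764 to 0.341 over the alternatives). Fkbp5 had 4.62 and an adjusted p of 0.271 (0.221 to 0.497). With 12 livers, neither association passed a test that spans all probe sets.

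**Figure D3:**
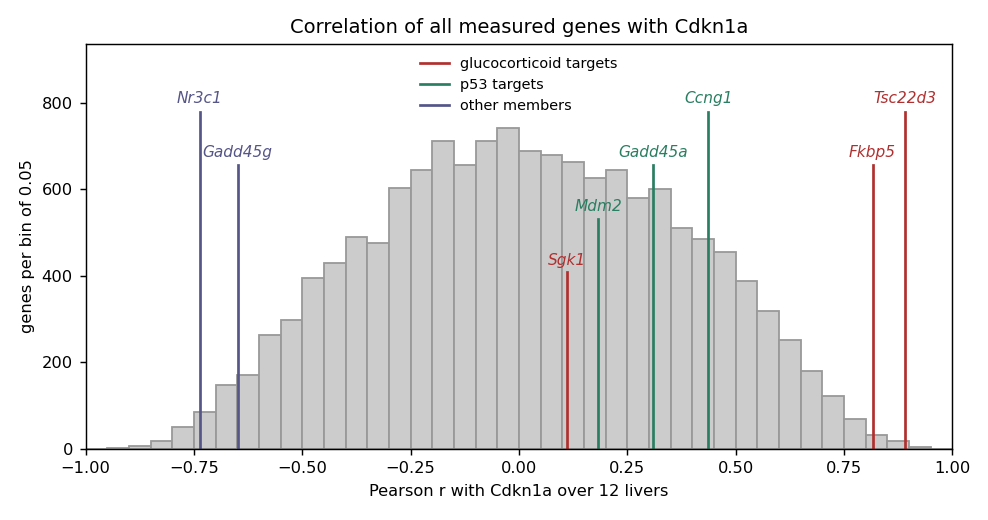
Histogram of Pearson's r with Cdkn1a over the 12 livers for 14216 genes (horizontal axis r, vertical axis genes per bin of 0.05), with the 8 other members marked by lines whose heights only separate the names. Tsc22d3 and Fkbp5 stand in the upper tail, while Sgk1, Mdm2, Gadd45a and Ccng1 lie among the bulk of genes.

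The genes whose pattern was most like that of Cdkn1a were Srsf4 (r = 0.94, rho = 0.87), Eva1c (r = 0.93, rho = 0.93), Ccn2 (r = 0.91, rho = 0.94), which encodes a matricellular growth factor, Ccdc51 (r = 0.90, rho = 0.85) and Stat3 (r = 0.90, rho = 0.90), the transcription factor of interleukin-6 signalling. Those most like Tsc22d3 were Pgam1 (r = 0.93), a glycolytic enzyme, C1h11orf24 (r = 0.91), Mfsd2a (r = 0.91), a lipid transporter, Neu2 (r = 0.91), a sialidase, and Cidec (r = 0.90), a lipid droplet protein. Each likeness is over the same 12 livers, and the genes were picked as the highest of 14216. Srsf4, Eva1c, Ccdc51, Pgam1 and Neu2 had SDs of 5.56e-06 to 9.41e-05, below the gap between array medians. Their values therefore depend on how arrays are scaled.

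Other glucocorticoid targets, from a list of 28 of which 27 were measured, had mostly positive correlations with Cdkn1a. The list was chosen with earlier results of these data known, so its counts are a description and no independent test. As deposited, 20 had a positive r with Cdkn1a and 7 a negative one, with a median of 0.41, where 51.5% of all genes were positive with a median of 0.01. At an unadjusted p of 0.05, 7 were positive (5.66% of all genes were) and 0 negative (4.17% of all genes were), and 0 passed after adjustment. Cebpd, a transcription factor of the acute phase response, had r = 0.84 (limma adjusted p = 0.222), and Ddit4, an inhibitor of mTORC1, had r = 0.79 (limma adjusted p = 0.33). The other 5, named after their values were seen, were the clock gene Per1 (r = 0.70), the acute phase protein Orm1 (r = 0.71), the NF-kB inhibitor Nfkbia (r = 0.68), the clock gene Cry1 (r = 0.60) and Cebpb (r = 0.57). Tat and Tdo2, amino acid degrading enzymes induced by glucocorticoids in liver, had r = 0.38 and 0.33, while the metallothionein Mt1 had r = -0.42 and Pdk4 had r = -0.50. Without the 2 farthest livers 22 of 27 were positive (median 0.37), against 52.2% of all genes. Under median centring, which made 92.8% of all genes positive with a median of 0.38, 23 of 27 were positive and the median of the list was 0.40. That share of 85.2% lay below the share of all genes. After quantile normalization 19 of 23 were positive (median 0.31), against 64.5% of all genes (median 0.14).

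Other genes listed as p53 targets, 23 measured of 31, were split evenly: 12 had a positive r and 11 a negative one. The median was 0.04, and this list was also chosen with earlier results of these data known. At an unadjusted p of 0.05, 1 was positive and 1 negative, where 5.66% and 4.17% of all genes were. The positive one was Gadd45b (r = 0.79), the remaining gene of the Gadd45 family, and the negative one was Ccng2 (r = -0.77), which encodes cyclin G2 and was named after its values were seen. Both count as p53 targets by the list alone. Each gene stood in 1 of the 2 target lists only, and whether p53 or the receptor regulates it in these livers was not tested. Plk3, a stress-activated kinase, had r = 0.48. Without the 2 farthest livers 9 of 23 were positive (median -0.17), after quantile normalization 14 of 22 were (median 0.23), and under median centring 18 of 23 were (median 0.33), so the medians of both lists lay closer together under either scaling than as deposited. Of p53 itself and its regulators, 3 of 6 measured genes were positive, with Chek1 at r = 0.45 and Atr at r = 0.13.

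Proliferation genes leaned negative against Cdkn1a, with 13 of 18 below 0 and a median of -0.22, where 51.5% of all genes were positive. At an unadjusted p of 0.05 there were 0 in either direction, where 5.66% of all genes were positive and 4.17% negative. Most of the list, such as Mki67 (7.35), Cdk1 (7.01) and Ccna2 (6.55), had a mean score below the table's median of 7.36628. The presence of such genes is not shown, so the lean is no measure of proliferation. Without the 2 farthest livers 2 of 18 were positive (52.2% of all genes), after quantile normalization 5 of 18 (64.5% of all genes), and under median centring 10 of 18 (92.8% of all genes). Mcm7 and Tk1, both of DNA synthesis, had the highest r (0.46 and 0.31). Among other cell cycle inhibitors, cyclins and kinases, 7 of 15 were positive, and Cdk6 (r = 0.70) and the inhibitor Cdkn1c (r = 0.67) were highest. Their rho was lower, at 0.53 and 0.41, and their mean scores of 7.08 and 7.32 also lay below the table's median. Cdk2, named after its values were seen, had r = -0.67. Of the fasting genes of liver, 10 of 12 were positive with a median of 0.30, where 51.5% of all genes were. This lean was not seen under other scalings: 5 of 8 were positive after quantile normalization, against 64.5% of all genes, and 11 of 12 under median centring, against 92.8%. Without the 2 farthest livers 8 of 12 were positive (median 0.16). The transcription factor Foxo1 had r = 0.66 and the hormone Fgf21 had r = 0.60, while Pck1 had r = 0.04 and Irs2, an insulin receptor substrate named after its values were seen, had r = -0.58. Among genes of hormone supply and the receptor's chaperones, 8 of 14 were positive, where 51.5% of all genes were. At an unadjusted p of 0.05 there were 2 positive and 2 negative, where 5.66% and 4.17% of all genes were. The positive ones were the chaperone genes Fkbp4 (r = 0.68) and Stip1 (r = 0.65). The negative ones, named after their values were seen, were Serpina6 (r = -0.72), which encodes the corticosteroid carrier of plasma, and the corepressor Ncor1 (r = -0.59). Immediate early genes, which respond to handling of tissue, had 4 of 15 positive with a median of -0.11, where 51.5% of all genes were positive. Zfp36 (r = 0.76) was highest, and Fos had r = 0.46.

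Markers of other liver cells were set beside these relations. Kupffer cell and macrophage markers had 5 of 7 positive with a median r of 0.40, where 51.5% of all genes were positive. Under other scalings their share lay below that of all genes. It was 57.1% after quantile normalization, against 64.5%, and 85.7% under median centring, against 92.8%. The mean standardised value of these markers had r = 0.46 with Cdkn1a. Cd163, a haemoglobin scavenger receptor of macrophages, had r = 0.77 and Cd68 had r = 0.58, whereas Adgre1 had r = -0.07 and Lyz2 r = -0.19. The mean of the hepatocyte markers had r = 0.09, that of sinusoidal endothelial markers -0.33, stellate cell and fibroblast markers -0.16, cholangiocyte markers -0.01, T and NK cell markers 0.07, B and plasma cell markers -0.13, neutrophil markers -0.01 and erythroid markers -0.32. The array median had r = -0.39 with Cdkn1a (rho = -0.08). The part of these in the relations above was not tested. In whole liver, fewer cells of a type and less RNA per cell cannot be told apart.

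**Figure D4:**
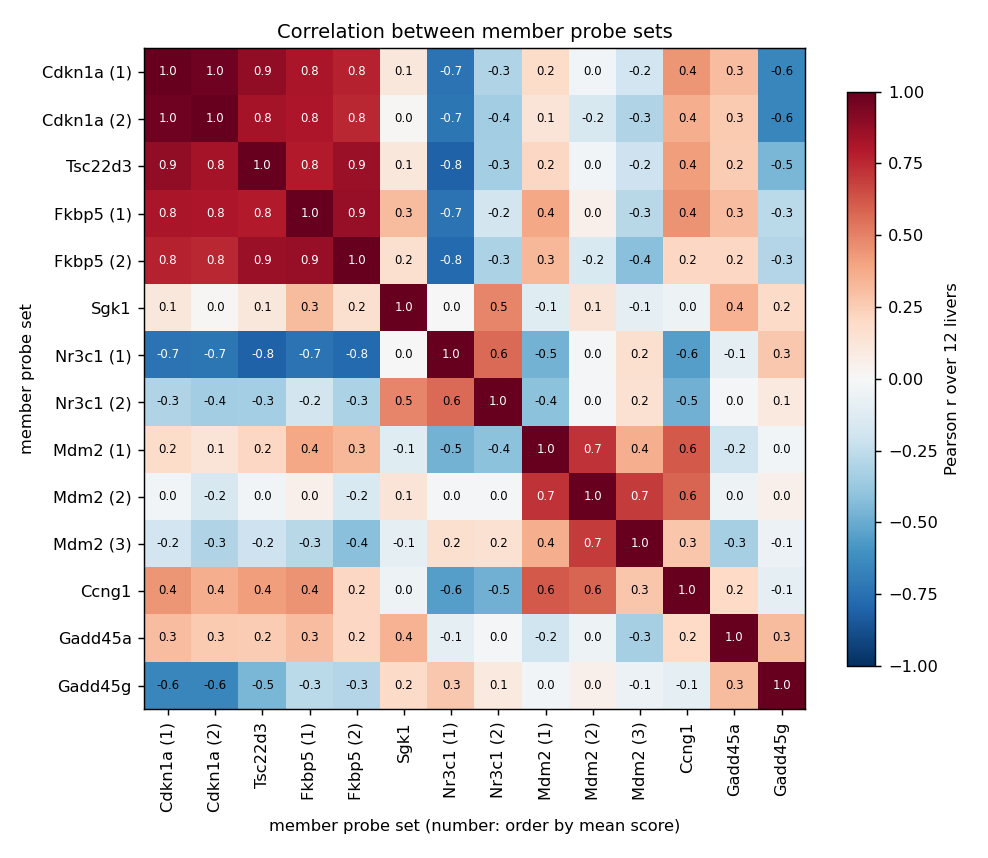
Pearson's r over the 12 livers between all 14 member probe sets, coloured from -1 to 1 and printed to 1 decimal; a number in brackets orders the probe sets of a gene by mean score. Cdkn1a, Tsc22d3 and the first Fkbp5 probe set have r of 0.79 to 0.89 with each other, while Ccng1 lies between, with r of 0.44 with Cdkn1a and 0.61, 0.58 and 0.28 with the Mdm2 probe sets.

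Between the diets, no member differed by more than the spread of the animals allowed to be called. In the limma fit over 20826 named probe sets, 0 passed an adjusted p of 0.05 (0% of those tested), and 873 had an unadjusted p under 0.05 (4.19%). Of the 14 member probe sets 0 passed, and 0 had an unadjusted p under 0.05 in either direction (2.08% of named probe sets did so higher with maple syrup and 2.11% lower), and the diets overlapped in all 14, where 0.0912% of named probe sets did not overlap. Differences are stated as Hedges' g: the mean of the maple syrup livers less that of the sugar mix livers, divided by the SD between animals (6 livers per diet).

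Gadd45a came nearest to a difference. Its lowest, median and highest standardised values were -1.07, 0.56 and 1.92 in maple syrup livers, against -1.18, -0.82 and 0.73 in sugar mix livers. It was higher with maple syrup in 30 of the 36 possible pairings of a maple syrup with a sugar mix animal, with g = 1.06 (95% interval -0.10 to 2.18), an exact permutation p of 0.0758 and a limma adjusted p of 1.0. Sgk1 followed with g = 0.70 (95% interval -0.40 to 1.77) and 26 of 36 pairs, and Gadd45g with g = 0.56 (95% interval -0.52 to 1.62) and 19 of 36 pairs. After quantile normalization the moderated t of Sgk1 changed sign.

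For Cdkn1a g was 0.05 (95% interval -1.0 to 1.09), and 18 of 36 pairs were higher with maple syrup. Tsc22d3 had g = -0.32 (95% interval -1.37 to 0.74). The 2 Fkbp5 probe sets had g = 0.31 and -0.19, those of Nr3c1 0.17 and -0.10, and those of Mdm2 0.12, 0.40 and -0.24, each pair or trio lying on both sides of 0. Ccng1 had g = 0.25. These intervals leave room for differences of about 1 SD. Gadd45a, at g = 1.06, was not called either, so diet effects of about that size could also be missed with these animals. 

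**Figure D5:**
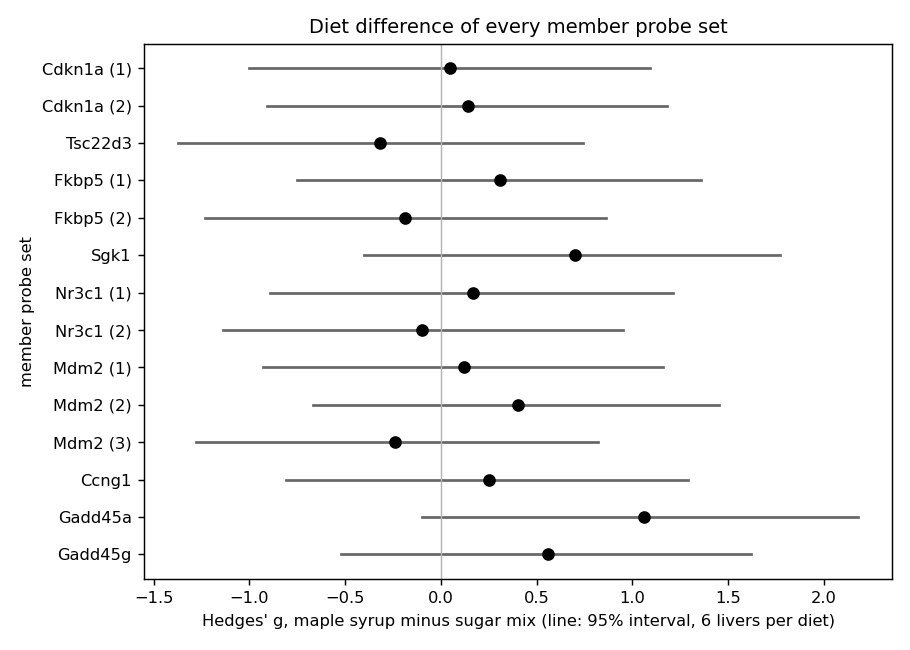
Hedges' g of maple syrup minus sugar mix (horizontal axis, in SDs between animals) for each of the 14 member probe sets, with lines for the 95% interval and 6 livers per diet; a number in brackets orders the probe sets of a gene by mean score. Every interval includes 0, and Gadd45a (g = 1.06) lies farthest from it.

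The other genes of both pathways also gave 0 calls between the diets. Of the 27 other glucocorticoid targets 11 were higher and 16 lower with maple syrup, with a median g of -0.15, where all 14217 genes had a median g of -0.04 and 47.1% higher. Hif3a, a hypoxia-related transcription factor, had g = -1.61 and Mt1 g = 1.10, each with a limma adjusted p of 1.0. Of the 23 other p53 targets 14 were higher and 9 lower (median g 0.32). Bcl2l1, an inhibitor of apoptosis, had g = 1.25, and Ephx1, an epoxide hydrolase, had g = -1.06. Among cell cycle inhibitors, cyclins and kinases 10 of 15 were higher (median g 0.36), with the retinoblastoma gene Rb1 at g = 1.40 and Cdkn2a at g = 1.23. In these 3 lists 1 gene each had an unadjusted p under 0.05, where 4.24% of all genes did. Pck1, the rate-limiting enzyme of gluconeogenesis, had g = -1.91 with a limma adjusted p of 1.0, and Mcm3, of the replicative helicase, had g = 1.46. Hsd11b1, which regenerates active glucocorticoid inside the liver cell, had g = 0.89, and Ppm1d, a phosphatase that restrains p53, had g = 0.90.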

How the data were processed

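Liver RNA from 12 rats was measured on Affymetrix arrays from biotin-labelled cRNA made of 2 ug of RNA, per the labels' protocols. The deposited table, with 31099 probe sets and 0 missing values, holds a score made by the authors, whose summarization and normalization no source used here gives.

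Names came from the platform annotation, updated through RefSeq: 20826 had 1 symbol, 436 several and 9780 none, and 57 controls were left out. The diet fit used limma 3.58.1 (R 4.3.3) with an intensity trend in eBayes and Benjamini-Hochberg adjustment over all named probe sets. The probe set with the highest mean stood for a gene in correlations. Correlations had 100000 permutations, and exact permutations of the diets used all 924 arrangements. The same fit was run on the Cdkn1a score, and differences between correlations were tested by sign flips; both were chosen after seeing the data. The planned adjustment over the 8 partners of Cdkn1a was not used, because the partners were chosen with results known. The fits were also run on simulated data with independent noise and effects larger than those of any member. That run does not show how well smaller effects, or scores that share an array's scaling, are handled.

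The members and lists were chosen with earlier results of these data known. Named are all members, the 5 genes most like Cdkn1a and Tsc22d3, and in each list those with the smallest diet p or highest r with Cdkn1a, as far as shown. Alternatives were scaling, probe set choice, variance models, array weights, a low filter of 30%, normal scores, the replicate number as a block and each array left out. Nothing says whether rats shared cages.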

Additional observations from a re-analysis of the deposited data

Results flagged for a closer look

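In the 28 combinations of a member probe set and a diet, 1 value lay apart from the rest of its group, and chance alone marks about 1 in 20. The second Fkbp5 probe set was at -1.94 SDs in sugar mix replicate 6, a gap of 0.63 of the range of its diet. The same liver was the lowest of all 12 in Cdkn1a and Tsc22d3, and with each liver left out in turn, this one included, r of Cdkn1a with Tsc22d3 was 0.87 to 0.93.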

How the results depend on the processing

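The count of 0 probe sets between the diets was 0 under all 10 other settings and without each array (0 to 0), and 0 with the replicate block (912 at an unadjusted p of 0.05). Replicate numbers did not pair the livers: r between same-numbered livers ran from -0.0403 to 0.118, and in 0 cases was the best partner the same number. Correlations of Cdkn1a with Tsc22d3 and Fkbp5 kept direction and p under 0.05 throughout; without each array they were 0.87 to 0.93 and 0.77 to 0.87. For Nr3c1 r was 0.67 under quantile normalization, -0.27 under median centring, -0.62 without the 2 farthest livers, -0.30 from its second probe set and -0.81 to -0.66 without each array. For Mdm2 it was -0.10 without the 2 farthest livers, -0.03 and -0.19 from the other probe sets, 0.33 under quantile normalization, 0.41 under median centring and 0.03 to 0.32 without each array. For Ccng1 it was 0.65 under median centring, 0.05 without the 2 farthest livers and 0.24 to 0.64 without each array. Without each array it was 0.18 to 0.63 for Gadd45a (0.16 without the 2 farthest livers), -0.80 to -0.59 for Gadd45g and -0.05 to 0.32 for Sgk1 (0.51 under quantile normalization and 0.37 under median centring). The cause was not tested.

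The 1 probe set that passed with Cdkn1a became 0 with diet as a term, with the other Cdkn1a probe set, under quantile normalization and under median centring, and 0 to 2 without each array. In that fit t changed sign for Nr3c1 under quantile normalization (2.56) and for its second probe set under median centring (0.17), for the second Mdm2 probe set under both (0.84 and 1.15) and the third under median centring (1.11). Without each array it ran from -0.93 to 0.47 for the second Mdm2 probe set and from -0.17 to 1.04 for Sgk1.

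Between the diets, t under quantile normalization became -1.19 for Sgk1, -0.52 for Nr3c1, 0.45 for the second Fkbp5 probe set, -0.64 for the second and 1.23 for the third Mdm2 probe set. Under median centring it became 0.12 for the second Nr3c1 and 0.21 for the third Mdm2 probe set. It was -0.05 for Cdkn1a with array weights and -0.06 for its second probe set with normal scores. Without each array it ran from -0.51 to 0.55 and -0.31 to 0.74 for the Cdkn1a probe sets, -0.28 to 1.08 and -0.69 to 0.39 for Nr3c1, -0.27 to 0.94 for Mdm2, -1.32 to 0.02 for the second Fkbp5 probe set and -0.01 to 1.10 for Ccng1.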
